A study of Mus musculus with 20 samples.

Results

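Long fiber amosite asbestos (LFA) was compared with vehicle in the diaphragm of mice 12 weeks after injection into the pleural space. The comparison used the 8 arrays whose titles name LFA or control, of 20 arrays in the series, with 4 mice in each group and 1 array per mouse. All 8 mice were female C57Bl/6, aged 8 weeks when injected, and received 100 μl of 0.5% BSA/saline, alone in the vehicle control group (VC, labeled control) or with 25 μg of LFA. In the LFA preparation, 100% of the fibers were at least 5 μm long, 50.3% were longer than 15 μm, and 35.2% were longer than 20 μm. Short fiber amosite (SFA), milled from the same batch and given to 4 mice at the same dose of 25 μg, had 3.1% of its fibers at or above 5 μm and served as the second reference. The remaining 8 mice had received nanotubes (labeled NTS and NTL), and their arrays entered the fit only for its estimate of the spread. A part of the diaphragm was snap frozen, and its RNA was labeled with Cy3 and hybridized to Agilent 60K mouse arrays. Levels below are log2 signals relative to the 75th percentile of the array, a change is the mean of LFA minus the mean of VC on that scale, and values for single mice run from replicate 1 to replicate 4.

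Amosite is a rod-shaped amphibole asbestos. Fibers too long to leave the pleural space through the lymphatic openings of the parietal pleura are retained there, and macrophages cannot fully engulf them. Retained fibers are known for a lasting inflammatory reaction on the pleural surface of the chest wall and diaphragm, with recruited macrophages, connective tissue, and proliferating mesothelial cells. The diaphragm itself is striated muscle with a mesothelial lining on both faces, so its RNA holds muscle, fat, vessel, mesothelial, and immune transcripts together. In such bulk RNA, more cells of a type and more RNA per cell cannot be told apart.

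Of 36931 probes tested, 821 (2.22%) were called higher in LFA and 634 (1.72%) lower, at a change of at least 2-fold and an adjusted p under 0.05 (limma, Benjamini-Hochberg). By the brightest probe of each gene, 498 of 16067 genes (3.10%) were called higher and 273 (1.70%) lower, the background for the counts called in each list below. Increases reached much further than decreases, with 397 higher probes and 62 lower probes beyond 4-fold. The median of the higher probes was 3.94-fold and that of the lower probes 2.52-fold. For 85 of the higher probes, no VC array had a signal well above background. The 4 LFA arrays lay above the 4 VC arrays in 747 of the 821 higher probes and below them in 616 of the 634 lower probes, against 4.60% and 11.6% of all probes. Calls were made on these same arrays, so little overlap among called probes follows in large part from the call. By gene, the shares were 6.26% above and 10.2% below. The median change over all genes was −0.13, and 42.3% of genes had a positive change, the background for the list medians below. At an unadjusted p under 0.05 there were 24.8% of genes, the background for such counts. With quantile normalization in place of the 75th percentile, the median over probes moved from −0.28 to −0.08, and 983 probes were called higher and 312 lower.

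**Figure D1:**
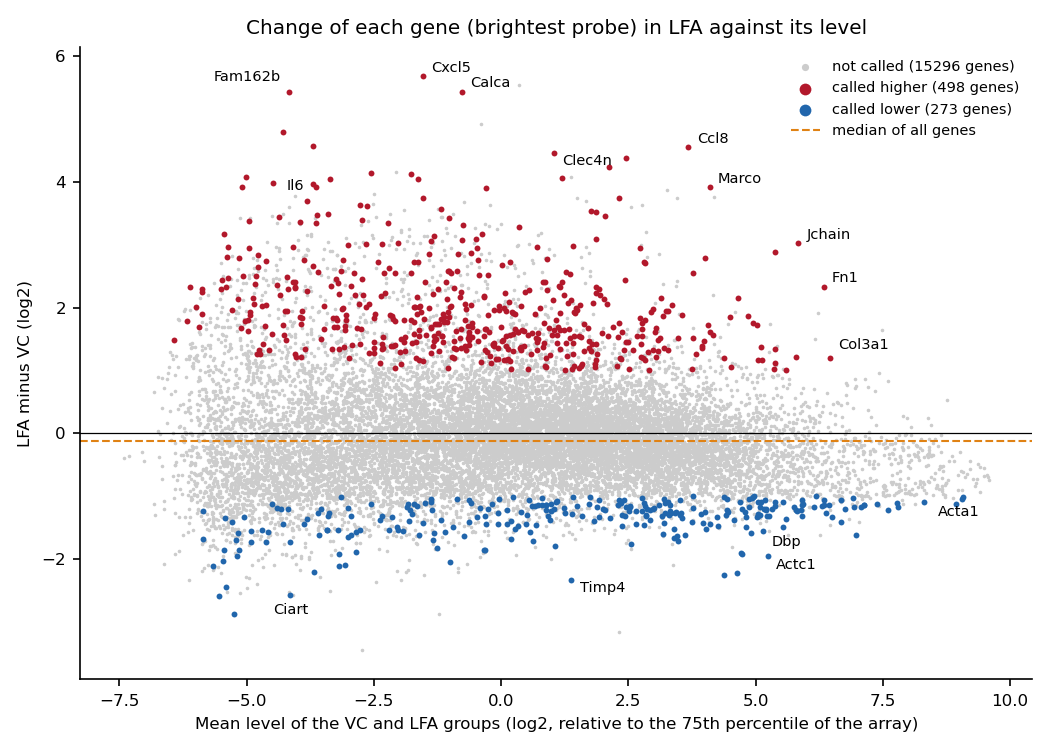
Change in LFA (log2, LFA minus VC) of each gene's brightest probe against its mean level in the 8 arrays (log2, relative to the 75th percentile), with 498 genes called higher in red, 273 called lower in blue, the rest in gray, and the median of all genes as a dashed line. The largest increases lie at low and middle levels, and many of the brightest called genes lie below 0.

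The signal at the 75th percentile ran from 294 to 648 in VC and from 548 to 964 in LFA, and 53% to 64.5% of spots were well above background in VC and 56.3% to 63.0% in LFA. An index of RNA integrity, the difference between probes near the 5′ and the 3′ end of 1127 transcripts, ran from −1.17 to −0.50 in VC, lowest in VC 2, and from −1.32 to −0.75 in LFA, lowest in LFA 3. Skeletal muscle genes were bright in all 8 arrays, with Acta1, the skeletal actin, at 9.57, 9.51, 9.49, and 9.76 in VC and at 8.57, 8.31, 8.50, and 8.91 in LFA. Liver RNA was present in part of the arrays of both groups. Alb, the serum albumin made by hepatocytes, was at 6.68, −1.09, −0.72, and 0.98 in VC and at 8.84, −1.0, 9.47, and −0.22 in LFA, so VC 1, LFA 1, and LFA 3 stood apart. The 14 liver markers had a mean of −0.98 to 4.13 in VC and −1.18 to 7.41 in LFA, and 0 of 14 were called, with 0 at an unadjusted p under 0.05. The arrays came from 3 slides, each holding mice of both groups. Of the 121 called genes named here, 121 had the same sign within each of the 3 slides. So did 818 of the 821 higher and 633 of the 634 lower probes. Calls were made on the same arrays, and lack of overlap forces the same sign, so this is no separate evidence. Of the 121 calls, 58 stayed whichever of the 8 arrays was left out. Leaving out LFA 2 ended 56 of these calls and leaving out LFA 3 ended 23, the most and the fewest. Of the 121, 98 stayed called with quantile normalization, 105 with normexp background correction, 91 with the slide as a block, 118 with the integrity index as a covariate, 100 with the liver marker score as a covariate, 83 without LFA 3 and VC 2, and 69 without the 3 mice rich in Alb, VC 1, LFA 1, and LFA 3. With the slide as a block, the genes called higher fell from 5 to 3 among CXC and CX3C chemokines. They fell from 4 to 2 among acute phase genes and among lysosome and osteoclast genes. Among those of lipid-laden macrophages they fell from 3 to 1. Where a call is given as lost without certain arrays, each of them was left out alone, unless they are said to be left out together.

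Chemokines of the CC family, which attract monocytes, macrophages, and lymphocytes, were mostly higher in LFA. Of 13 measured, 9 were called higher and 0 lower, with a median change of 2.56. Ccl8, a ligand for monocyte and lymphocyte receptors, was at 0.33, 2.55, 1.30, and 1.45 in VC and at 5.52, 6.69, 5.08, and 6.54 in LFA. This was a 23.5-fold increase (change 4.55, SE 0.51, adjusted p = 0.000113, limma). Ccl6, a chemokine of macrophages, was at 3.55 to 4.69 in VC and at 6.42, 6.58, 6.92, and 7.41 in LFA, and it had the smallest standard error of the group (change 2.89, SE 0.32, adjusted p = 0.000113). Ccl3 and Ccl4, both attractants of macrophages and T cells, rose by 3.50 (SE 0.50, adjusted p = 0.00101) and 3.34 (SE 0.55, adjusted p = 0.00288). Ccl3 was well above background in 1 of 4 VC arrays and in 4 of 4 LFA arrays. Among the monocyte attractants that signal through Ccr2, Ccl2 was at 0.15, 1.92, 0.70, and 0.57 in VC and at 2.29, 3.53, 2.35, and 3.98 in LFA (change 2.20, SE 0.40, adjusted p = 0.00591). Ccl7 rose by 2.57 (SE 0.53, adjusted p = 0.0128). Ccl12 rose by 2.73 (SE 0.60, adjusted p = 0.0179), with VC 2 at 0.26 above LFA 1 at 0.15. Ccl11, the eosinophil attractant eotaxin, was not called, with a change of −0.44 (adjusted p = 0.549). Between 6 and 10 of the 13 were called with 1 of the 8 arrays left out, the fewest without LFA 2. Leaving out 1 array also ended calls of Ccl7 (LFA 2, adjusted p up to 0.0542) and Ccl12 (VC 1, VC 4, LFA 2, or LFA 4, adjusted p up to 0.0687).

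**Figure D2:**
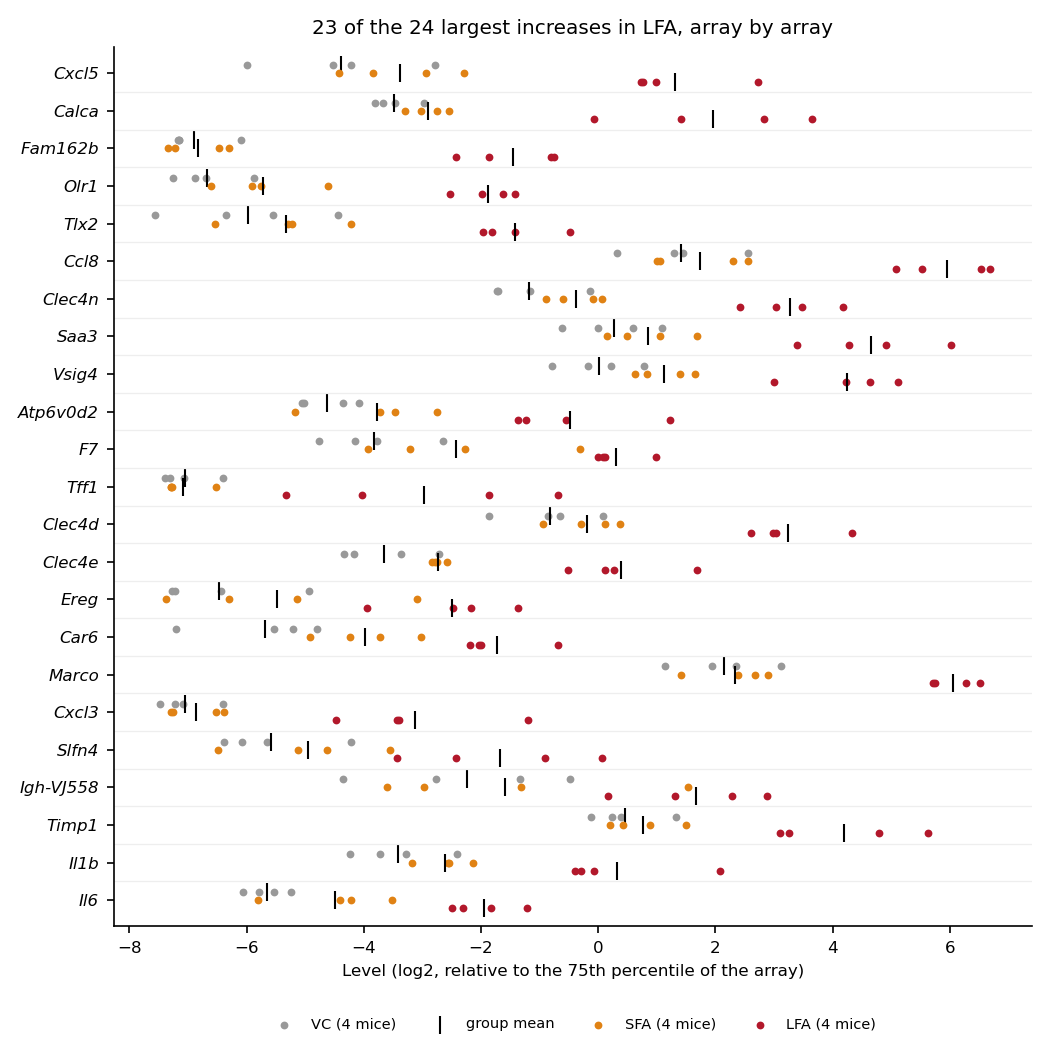
Level (log2, relative to the 75th percentile of the array) of 23 of the 24 genes with the largest increases, with points for single mice of VC (gray), SFA (orange), and LFA (red) and black bars for group means. The genes were chosen among called genes whose 4 LFA mice all lie above the 4 VC mice.

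Among the CXC and CX3C chemokines, 5 of 14 were called higher and 0 lower, with a median change of 0.98. The called members included the neutrophil attractants Cxcl5, Cxcl3, Cxcl2, and Cxcl1, which share the receptor Cxcr2, and Cxcl13, which attracts B cells. Cxcl5 had the largest change of any named gene. It was at −5.99, −2.79, −4.22, and −4.53 in VC and at 0.74, 0.76, 0.99, and 2.73 in LFA, a 51.5-fold increase (change 5.69, SE 0.73, adjusted p = 0.000381). Cxcl3 was not well above background in VC, and its increase was at least 7.02-fold (adjusted p = 0.00347). Cxcl2, likewise not above background in VC and measured in 3 of 4 LFA arrays, was at least 2.71-fold higher (adjusted p = 0.0459). These bounds hold for the processed signal only, and both calls were lost with normexp background correction, as given below. The Cxcl2 call was lost without any array but LFA 3, with an adjusted p of up to 0.133. Cxcl1 was at −3.02, −2.05, −2.98, and −2.90 in VC and at −0.76, −0.75, −1.18, and 0.44 in LFA (change 2.17, SE 0.51, adjusted p = 0.0242). Cxcl13 rose by 1.94 (SE 0.50, adjusted p = 0.0355). Cxcl10, induced by interferon, had a change of 1.85 and an adjusted p of 0.0503, just outside the call. Without VC 1, VC 4, LFA 2, or LFA 4 the number called fell to 2 of 14. With 1 array removed, the calls also lost were those of Cxcl1 (any array but VC 2, LFA 1, and LFA 3, adjusted p up to 0.077) and Cxcl13 (any array but VC 3, adjusted p up to 0.0907).

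The promoters of 3 of these chemokine genes and of Il6 are shown because they carry the same kind of element close to the start. Each line gives the 120 bases before the transcription start in RefSeq GRCm38.p6, written 5′ to 3′ on the strand of the gene, with the match to the NF-kB motif in capitals. Cxcl3 covers chr5:90785981-90786100, Cxcl1 chr5:90891125-90891244, Cxcl2 chr5:90903779-90903898, and Il6 chr5:30012994-30013113, and each is on the plus strand.
Cxcl1: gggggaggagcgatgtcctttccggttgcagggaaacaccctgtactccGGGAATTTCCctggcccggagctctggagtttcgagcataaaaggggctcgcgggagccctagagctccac
Cxcl2: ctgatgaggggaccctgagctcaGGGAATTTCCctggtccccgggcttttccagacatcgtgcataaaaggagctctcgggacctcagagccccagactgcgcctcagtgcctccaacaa
Cxcl3: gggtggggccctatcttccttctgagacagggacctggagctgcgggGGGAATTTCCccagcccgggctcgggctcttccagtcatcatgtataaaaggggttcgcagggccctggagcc
Il6: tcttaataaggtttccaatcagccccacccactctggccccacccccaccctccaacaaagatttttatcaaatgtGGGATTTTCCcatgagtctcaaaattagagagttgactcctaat
The matches began 71, 97, 73, and 44 bases before the start. Cxcl1, Cxcl2, and Cxcl3 held the same run, GGGAATTTCC, and Il6 held GGGATTTTCC. For genes with a promoter sequence, the 250 bases before each start were searched on either strand. The motif was in at least 1 promoter of 11.9% of the genes called higher, 10.7% of those called lower, and 10.3% of all tested genes. Its share therefore hardly separated the called genes from the rest.

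Chemokine receptors and cytokines followed the ligands in part. Of 14 chemokine receptors, 4 were called higher and 0 lower, with a median change of 1.20. With normexp background correction the median was 0.57 and 4 were called higher. Cxcr2, the receptor for Cxcl1, Cxcl2, Cxcl3, and Cxcl5, rose by 2.57 (SE 0.54, adjusted p = 0.0137), was above background in 2 of 4 VC arrays, and was not called with normexp background correction (change 0.78, adjusted p = 0.053). Cx3cr1, carried by patrolling monocytes and tissue macrophages, rose by 1.96 (SE 0.43, adjusted p = 0.0174). Ccr2, the receptor of inflammatory monocytes, rose by 1.59 (SE 0.40, adjusted p = 0.0324). The calls of Cxcr2 and Cx3cr1 were lost without LFA 2 or LFA 4, and that of Cx3cr1 also without VC 1, with an adjusted p of up to 0.0518 and 0.067. The Ccr2 call was lost without any array but VC 2, LFA 1, and LFA 3 (adjusted p up to 0.094). Without LFA 2 or LFA 4, 1 of the 14 receptors was called.

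Of 29 cytokines and their receptors, 13 were called higher and 0 lower, with a median change of 1.34. The median was 0.98 and 10 were called higher with normexp background correction. Il1b, the inflammasome product interleukin-1 beta, was at −4.24, −2.40, −3.28, and −3.72 in VC and at −0.07, −0.39, −0.29, and 2.07 in LFA, a 13.4-fold increase (change 3.74, SE 0.72, adjusted p = 0.00825). Its signaling receptor Il1r1 rose by 2.41 (SE 0.42, adjusted p = 0.00436) and the decoy receptor Il1r2 by 2.55 (SE 0.66, adjusted p = 0.0377). Il6, an inducer of the acute phase response and of STAT3, was at −5.79, −5.53, −6.06, and −5.24 in VC and at −2.49, −1.82, −2.31, and −1.21 in LFA (change 3.70, SE 0.50, adjusted p = 0.000629). It was well above background in 1 of 4 VC arrays and in 4 of 4 LFA arrays. Socs3, a feedback inhibitor induced through STAT3, rose by 1.55 (SE 0.31, adjusted p = 0.00987), with VC at 1.60 to 2.19 and LFA at 2.86 to 4.00. Stat3 itself was not called. It was at 4.10, 4.31, 3.58, and 3.61 in VC and at 3.82, 4.38, 4.27, and 4.58 in LFA (change 0.36, SE 0.25, adjusted p = 0.383). Csf2rb, the common chain of the GM-CSF and interleukin-3 receptors, rose by 2.23 (SE 0.29, adjusted p = 0.000381), and its ligand gene Csf2 rose by 1.79 (SE 0.36, adjusted p = 0.0102). Il10, a cytokine that restrains macrophages, was not above background in VC and rose at least 3.24-fold (adjusted p = 0.00558). Spp1, the secreted matrix protein and cytokine osteopontin, rose by 2.95 (SE 0.80, adjusted p = 0.0444), a call lost without any array but LFA 3 (adjusted p up to 0.129). Tnf had a change of 1.04 and was not called (adjusted p = 0.163). Between 9 and 13 of the 29 were called with 1 array left out, the fewest without LFA 2 or LFA 4. Single arrays also decided the call of Il1r2 (lost without any array but LFA 3, adjusted p up to 0.109).

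The receptors with which phagocytes recognize particles, dying cells, and microbes were mostly higher in LFA. Of 19 C-type lectin receptors, Fc receptors, and their adaptors, 14 were called higher and 0 lower, with a median change of 2.02. The 3 largest increases were in neighboring genes of 1 cluster on chromosome 6, Clec4n (chr6:123196969-123197028 for the probe, NCBI37), Clec4d (chr6:123224788-123224847), and Clec4e (chr6:123232878-123232937). These encode Dectin-2, MCL, and Mincle, lectins that signal for phagocyte activation. Clec4n was at −1.73, −0.13, −1.17, and −1.71 in VC and at 3.03, 3.48, 2.42, and 4.18 in LFA, a 22-fold increase (change 4.46, SE 0.52, adjusted p = 0.000153). Clec4d was at −0.86, 0.09, −0.66, and −1.86 in VC and at 3.03, 2.60, 2.98, and 4.33 in LFA (change 4.06, SE 0.47, adjusted p = 0.000152). Clec4e was at −4.17, −2.72, −3.36, and −4.33 in VC and at 0.12, 0.28, −0.52, and 1.69 in LFA (change 4.04, SE 0.45, adjusted p = 0.000113). In each of the 3, the lowest LFA mouse was more than 2 log2 units above the highest VC mouse. Clec7a, the beta-glucan receptor Dectin-1, rose by 3.10 (SE 0.42, adjusted p = 0.000655). Trem2, a lipid sensor of macrophages that signals through Tyrobp, was at 0.09, 0.71, −0.53, and −0.25 in VC and at 2.95, 3.96, 2.60, and 4.65 in LFA (change 3.54, SE 0.39, adjusted p = 0.000113). Tyrobp, its adaptor, rose by 1.85 (SE 0.36, adjusted p = 0.00836). Fcgr4, a receptor for immunoglobulin G, rose by 3.09 (SE 0.53, adjusted p = 0.00384), and Fcgr2b, the inhibitory receptor of that family, rose by 2.98 (SE 0.54, adjusted p = 0.00558). At least 12 of the 19 were called with any 1 of the 8 arrays left out.

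Scavenger receptors, which bind modified lipids and particles, gave 6 called higher of 14 and 0 lower, with a median change of 0.88. Olr1, the receptor for oxidized LDL, was not above background in VC, at −6.88, −5.87, −6.70, and −7.26, and was at −1.98, −1.41, −2.53, and −1.63 in LFA, at least 16.6-fold higher (adjusted p = 1.08e-05). Marco, a macrophage receptor for inhaled particles, was at 1.14, 2.35, 3.13, and 1.95 in VC and at 5.75, 5.71, 6.51, and 6.28 in LFA, a 15.1-fold increase (change 3.92, SE 0.46, adjusted p = 0.000176). Msr1, another class A scavenger receptor, rose by 3.14 (SE 0.49, adjusted p = 0.00184), and Mrc1, the mannose receptor, by 1.93 (SE 0.39, adjusted p = 0.0108). Cd68, the lysosomal protein used to stain macrophages, was at 1.74, 2.74, 2.50, and 2.20 in VC and at 3.81, 4.52, 3.75, and 4.91 in LFA (change 1.95, SE 0.34, adjusted p = 0.00443). Among 19 Toll-like receptor and inflammasome genes, 8 were called higher and 0 lower, with a median change of 1.19. Normexp background correction gave a median of 0.70 and 7 called higher. Cd14, a coreceptor for bacterial lipopolysaccharide, rose by 2.30 (SE 0.32, adjusted p = 0.000742), with VC at 0.55 to 0.87 and LFA at 2.18 to 4.05. Tlr13 rose by 1.99 (SE 0.32, adjusted p = 0.00271), and Pycard, the adaptor ASC that joins inflammasome sensors to caspase-1, by 1.80 (SE 0.31, adjusted p = 0.00436). Nlrp3, the sensor activated by crystals and fibers, had a change of 0.07 and was not called. Without VC 1, LFA 2, or LFA 4, 3 of these 19 were called.

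Of 15 monocyte and macrophage markers, 12 were called higher and 0 lower, and the mean of the list was at 1.67, 1.94, 1.98, and 1.77 in VC and at 3.17, 3.96, 2.88, and 3.83 in LFA. Ms4a6d, a membrane protein of monocytes and macrophages, rose by 2.68 (SE 0.34, adjusted p = 0.000381), and Ms4a7 rose by 2.33 (SE 0.40, adjusted p = 0.00423). Adgre1, a macrophage surface receptor, was at 0.65, 1.82, 0.51, and 0.85 in VC and at 2.48, 3.33, 3.09, and 3.45 in LFA (change 2.13, SE 0.38, adjusted p = 0.00558). Csf1r, the receptor for the macrophage growth factor, rose by 1.34 (SE 0.23, adjusted p = 0.00453). Among 12 genes of resident tissue macrophages, 8 were called higher. They include Adgre1, Csf1r, and Ms4a7, which the markers above also count. With 1 of the 8 arrays left out, 6 to 7 of the 12 were called. Vsig4, a complement receptor also found on the macrophages of the liver, was at −0.17, 0.79, 0.22, and −0.79 in VC and at 4.22, 3.01, 5.11, and 4.64 in LFA (change 4.23, SE 0.86, adjusted p = 0.0118). The Vsig4 call held with any 1 of the 8 arrays left out (adjusted p up to 0.0402). It was lost with VC 1, LFA 1, and LFA 3 left out together (change 3.75, adjusted p = 0.152). Siglec1, a sialic acid receptor of resident macrophages, rose by 2.73 (SE 0.57, adjusted p = 0.0136) and was not called without LFA 2 (adjusted p = 0.0544). Ptprc, the pan-leukocyte marker CD45, had a change of 1.30 and an adjusted p of 0.0638. The count of monocyte and macrophage markers was 7 of 15 without LFA 2, the lowest, and 11 of 15 without both LFA 3 and VC 2.

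Genes of the lysosome and of osteoclasts were changed unevenly, with 4 of 20 called higher, 0 lower, and a median of 0.58. The count was 2 of 20 when any array but VC 1 and LFA 3 was left out. Atp6v0d2, a proton pump subunit typical of osteoclasts and fused macrophages, was at −5.05, −5.03, −4.08, and −4.36 in VC and at −0.54, −1.37, −1.24, and 1.22 in LFA. This was a 17.7-fold increase (change 4.14, SE 0.82, adjusted p = 0.00963). With normexp background correction the Atp6v0d2 change was smaller, at 2.25 (adjusted p = 0.0172). Its call was lost with VC 1, LFA 1, and LFA 3 left out together (change 4.41, adjusted p = 0.0733). Ctss, the cathepsin that prepares antigens for class II molecules, rose by 2.15 (SE 0.36, adjusted p = 0.00371), from 2.97 to 4.39 in VC to 5.14 to 6.24 in LFA. Of 16 genes of lipid-laden macrophages 3 were called higher. Lgals3, the macrophage lectin galectin-3, rose by 1.87 (SE 0.44, adjusted p = 0.0246), Ch25h, which makes 25-hydroxycholesterol, by 1.73 (SE 0.37, adjusted p = 0.0153), and Cd5l, secreted by macrophages including those of the liver, by 2.95 (SE 0.79, adjusted p = 0.0424). The Cd5l call was lost when any 1 of the 8 arrays was left out (adjusted p up to 0.0948). With VC 1, LFA 1, and LFA 3 left out together its change was 2.30 (adjusted p = 0.343). Without LFA 2 or LFA 4, 0 of these 16 were called. In the list of alternatively activated macrophages, 2 of 10 were called. Arg1, the arginase of such cells and of hepatocytes, had a larger change than most called genes, at 0.01, −4.07, −3.14, and −2.48 in VC and 4.27, 3.72, 2.53, and 1.94 in LFA. The groups did not overlap, yet its adjusted p was 0.0521 (change 5.53, SE 1.56), so Arg1 was not called. Leaving out 1 array also ended calls of Lgals3 (any array but VC 2, LFA 1, and LFA 3, adjusted p up to 0.077) and Ch25h (LFA 2 or LFA 4, adjusted p up to 0.057).

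Acute phase genes, which encode plasma proteins of inflammation made mostly by the liver, had a median change of 1.55, and 4 of 13 were called higher. The list mean was at 0.31, 0.05, −0.55, and −0.20 in VC and at 2.49, 1.29, 2.44, and 0.75 in LFA, higher in LFA 1 and LFA 3, the LFA mice with the most Alb signal. With the liver marker score as a covariate the median was 0.79 and 2 of 13 were called, and with the integrity index as a covariate the median was 0.98. Saa3, a serum amyloid A that macrophages and fat cells make locally, was at 1.10, 0.60, −0.00, and −0.61 in VC and at 4.27, 6.01, 3.40, and 4.90 in LFA (change 4.38, SE 0.57, adjusted p = 0.000415). Saa1, the form best known from liver, was at 0.24, 1.06, −0.38, and −0.49 in VC and at 3.17, 4.33, 3.96, and 3.02 in LFA (change 3.52, SE 0.73, adjusted p = 0.0135). With VC 1, LFA 1, and LFA 3 left out together the Saa1 call was lost (adjusted p = 0.109). Serpina3n, a secreted protease inhibitor, rose by 2.87 (SE 0.75, adjusted p = 0.038), and was not called with the liver marker score as a covariate (change 2.56, adjusted p = 0.0529). F7, coagulation factor VII, was at −2.66, −3.77, −4.76, and −4.15 in VC and at 0.99, 0.07, 0.12, and −0.00 in LFA (change 4.13, SE 1.14, adjusted p = 0.0475). With the liver marker score as a covariate the F7 change was 3.25 (adjusted p = 0.0205). With VC 1, LFA 1, and LFA 3 left out together it was 4.26 and not called (adjusted p = 0.219). The F7 call was lost without any 1 of the 8 arrays (adjusted p up to 0.106). Hp, the hepatic hemoglobin binder haptoglobin, was not called (change 1.50, adjusted p = 0.296). With 1 array left out, between 1 and 3 of the 13 acute phase genes were called, 1 without LFA 2. With 1 array removed, the calls also lost were those of Saa1 (LFA 2, adjusted p up to 0.0531) and Serpina3n (any array but VC 4 and LFA 3, adjusted p up to 0.107).

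Complement genes gave 5 called higher of 19 and 0 lower, with a median change of 1.13, and 9 with quantile normalization. C5ar1, the receptor for the chemotactic fragment C5a, was at −2.54, −1.81, −2.65, and −2.80 in VC and at −0.71, 0.17, −0.88, and 0.49 in LFA (change 2.22, SE 0.32, adjusted p = 0.00101). C1qa and C1qc, chains of the first component and products of macrophages, rose by 1.89 (SE 0.38, adjusted p = 0.0106) and 1.61 (SE 0.26, adjusted p = 0.00259). C6, a component of the membrane attack complex, rose by 2.23 (SE 0.52, adjusted p = 0.0242), a call lost without VC 1, VC 2, LFA 1, or LFA 2 (adjusted p up to 0.0835). C3, the central component, was bright in both groups, at 8.08 to 8.99 in VC and 8.87 to 9.27 in LFA, and was not called (change 0.53, adjusted p = 0.3).

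Genes for the oxidative burst and for lipid mediators were also called higher. In the list of the phagocyte oxidase and NOS2, 5 of 7 were called higher and 0 lower, and these 5 are subunits of the oxidase complex itself. Ncf1, the p47 subunit, was at −0.93, −2.16, −0.10, and −0.99 in VC and at 0.95, 1.68, 0.22, and 1.91 in LFA (change 2.24, SE 0.41, adjusted p = 0.0058). Cybb, its membrane-bound catalytic subunit, rose by 1.66 (SE 0.30, adjusted p = 0.00591), and Ncf4, the p40 subunit, by 1.66 (SE 0.31, adjusted p = 0.00736). Without VC 1, VC 4, LFA 2, or LFA 4, 3 of the 7 were called. Of 15 prostaglandin and leukotriene genes, 7 were called higher and 0 lower, with a median of 1.07, and at least 7 stayed called with any 1 array left out. Ptgs2, the inducible cyclooxygenase, was at −4.42, −4.11, −4.15, and −5.05 in VC and at −2.32, −1.24, −3.07, and −0.78 in LFA (change 2.58, SE 0.46, adjusted p = 0.00496). Ptger2, a receptor for prostaglandin E2, rose by 2.54 (SE 0.47, adjusted p = 0.00608), and Hpgds, the prostaglandin D synthase of hematopoietic cells, by 1.83 (SE 0.36, adjusted p = 0.00987). With normexp background correction the Hpgds change was 0.47 and its call was lost (adjusted p = 0.13), and that of Ptgs2 was 1.17. On the leukotriene side, Alox5, the 5-lipoxygenase, was at −0.25, 0.92, 0.26, and 0.13 in VC and at 1.77, 2.02, 1.89, and 2.14 in LFA (change 1.69, SE 0.26, adjusted p = 0.00152). Its partner Alox5ap rose by 1.32 (adjusted p = 0.00436) and Ltc4s, which completes leukotriene C4, by 1.37 (adjusted p = 0.00736). Of 17 antioxidant targets of NRF2, 0 were called, where 3.10% of all genes were called higher and 1.70% lower. The median of the 17 was 0.02 and fell to −0.05 under normexp background correction. At an unadjusted p under 0.05 there were 2 of the 17. Hmox1, the heme oxygenase of that list, was at 1.14 to 2.02 in VC and 2.0 to 2.80 in LFA (change 0.91, adjusted p = 0.0547). Among 14 iron genes 1 was called, Slc11a1, the phagosomal metal transporter NRAMP1 (change 1.80, SE 0.35, adjusted p = 0.00937).

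Interferon-stimulated genes leaned upward as a list, with 6 of 22 called higher, 0 lower, 22 of 22 positive, and a median of 1.14. The largest change of the list was that of Mx1 (change 2.86, SE 0.61, adjusted p = 0.0157). It was at −3.91, −1.88, −3.01, and −2.57 in VC and at −1.33, 1.01, −0.71, and 1.09 in LFA. Zbp1, a sensor of unusual nucleic acid structures, rose by 2.29 (SE 0.43, adjusted p = 0.0068), and Oas3 and Oas1a, synthetases of 2-5A, by 2.32 (SE 0.63, adjusted p = 0.0446) and 2.16 (SE 0.41, adjusted p = 0.00745). Oas3 was above background in 1 of 4 VC arrays, and its call was lost with normexp background correction (change 0.70, adjusted p = 0.126) and without any array but VC 4 and LFA 3 (adjusted p up to 0.119). Without VC 1, LFA 2, or LFA 4, 2 of the 22 were called. The interferon-stimulated response element (ISRE) was searched by its core, TTTCNNTTTC, on both strands of the 250 bases before each start in RefSeq GRCm38.p6. It was in at least 1 promoter of 10.4% of the genes called higher, 2.58% of those called lower, and 3.33% of all tested genes. The site of the myeloid factor PU.1, GAGGAAGT, showed the same order, with 7.36%, 1.72%, and 2.87%. Promoters of 3 genes described above are shown as the 120 bases before the start with the ISRE core in capitals as read on the strand of the gene. They lie at chr5:120777660-120777779 (minus strand, Oas3), chr5:134229626-134229745 (minus, Ncf1), and chr3:95526666-95526785 (plus, Ctss).
Oas3: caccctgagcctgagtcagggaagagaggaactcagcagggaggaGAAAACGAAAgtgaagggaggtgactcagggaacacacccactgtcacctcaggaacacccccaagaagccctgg
Ncf1: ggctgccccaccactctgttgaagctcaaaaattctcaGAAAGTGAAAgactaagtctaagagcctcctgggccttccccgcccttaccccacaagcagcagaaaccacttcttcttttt
Ctss: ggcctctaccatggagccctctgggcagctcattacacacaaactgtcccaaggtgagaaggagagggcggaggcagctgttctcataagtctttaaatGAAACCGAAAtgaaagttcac
The core began 75 bases before the start in Oas3, 82 in Ncf1, and 21 in Ctss, so it was found beside an oxidase subunit and a cathepsin as well as an antiviral gene. A match describes letters only, and binding was not measured. Single arrays also decided the call of Mx1 (lost without VC 1, LFA 2, or LFA 4, adjusted p up to 0.0631).

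Among the lymphocyte lists, that of antibody-secreting plasma cells gave the most calls. Of 12 plasma cell genes, 6 were called higher and 0 lower, with a median of 1.70, and the list mean was at 0.57, 0.93, 1.01, and 0.42 in VC and at 2.22, 2.65, 2.62, and 2.66 in LFA. Jchain, which joins the units of secreted IgA and IgM, was at 4.24, 4.77, 4.37, and 3.92 in VC and at 7.13, 7.40, 7.25, and 7.62 in LFA, an 8.13-fold increase (change 3.02, SE 0.44, adjusted p = 0.00101). Derl3, a protein of the endoplasmic reticulum abundant in secretory cells, rose by 2.97 (SE 0.33, adjusted p = 0.000117), and Mzb1, a chaperone of immunoglobulin assembly, by 2.45 (SE 0.44, adjusted p = 0.00583). Tnfrsf17, the receptor BCMA that keeps plasma cells alive, rose by 2.86 (SE 0.65, adjusted p = 0.0202), a call lost without VC 1, VC 4, or LFA 4 (adjusted p up to 0.0599). Igh-VJ558, an immunoglobulin heavy chain variable gene whose probe may share sequence with its many relatives, rose by 3.90 (SE 1.0, adjusted p = 0.0368) and was lost without any array but VC 3 and LFA 3. Without VC 1, VC 4, or LFA 4, 4 of the 12 plasma cell genes were called. Among 14 B cell genes, 0 were called, with 1 at an unadjusted p under 0.05 and a median of 0.32. Cd79b, a chain of the B cell receptor complex, was at 3.19, 3.62, 4.42, and 2.78 in VC and at 3.24, 4.33, 3.94, and 3.60 in LFA (change 0.27, adjusted p = 0.725). Ms4a1, the antigen CD20, overlapped in the same way, at 1.32 to 3.12 and 2.13 to 3.93 (change 0.51, adjusted p = 0.596).

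Other leukocyte lists gave few calls, where 3.10% of all genes were called higher and 1.70% lower. Of 17 T cell genes 1 was called, Icos, a costimulatory receptor of activated T cells (change 1.90, SE 0.49, adjusted p = 0.0375), and this call was lost without any array but VC 2 and VC 3 (adjusted p up to 0.104). Cd3e, a chain of the T cell receptor complex, was at 1.25, −0.13, 1.13, and 0.73 in VC and at 0.93, 1.28, 0.30, and 0.20 in LFA (change −0.06, adjusted p = 0.94). Of 12 NK and cytotoxic genes 1 was called, Gzmb, the protease granzyme B (change 1.85, SE 0.36, adjusted p = 0.00898), with LFA at −3.46 to −2.58 against −5.24 to −4.49. Gzmb was above background in 2 of 4 VC arrays, and with normexp background correction its change was 0.37 (adjusted p = 0.233), 0 of the 12 were called, and their median was −0.02. Of 13 neutrophil genes 1 was called, Cxcr2, described above, and 0 were called with normexp background correction. Ly6g, the neutrophil antigen, was at 0.20, 0.54, 0.41, and −0.68 in VC and at 0.58, 1.18, −0.53, and 0.14 in LFA (change 0.22, adjusted p = 0.735). S100a8, a calgranulin of neutrophils, was at 0.41 to 4.00 in VC and 2.58 to 4.01 in LFA and was not called (change 1.02, adjusted p = 0.421). Hdc, which makes histamine in mast cells and basophils, rose by 1.65 (SE 0.26, adjusted p = 0.00238), while the mast cell proteases Cpa3 and Cma1 had changes of 0.68 and 0.60 and were not called (adjusted p = 0.25 and 0.463). Of 12 genes listed for class II antigen presentation 1 was called, Cd86, a costimulatory molecule and not a class II chain. Its call was lost without any array but VC 2 (adjusted p up to 0.121). Of 14 class I genes 0 were called. The 2 lists had 3 and 4 genes at an unadjusted p under 0.05, while 11 of 12 and 14 of 14 had a positive change. Leukocyte adhesion gave 5 of 13, and 3 without VC 1, LFA 2, or LFA 4. Itgb2, the beta-2 integrin chain, rose by 1.92 (SE 0.33, adjusted p = 0.00381), Selp, the P-selectin of platelets and vessel walls, by 1.57 (SE 0.27, adjusted p = 0.00386), and Cd44, the hyaluronan receptor, by 1.73 (SE 0.32, adjusted p = 0.00665).

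**Figure D3:**
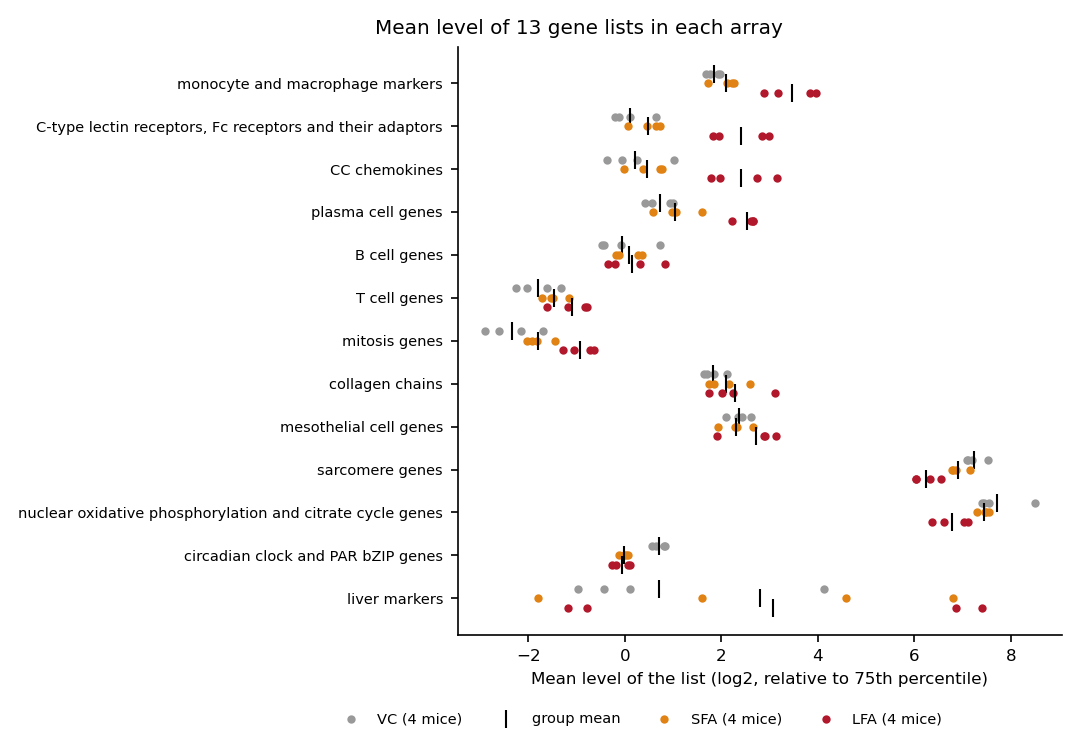
Mean level (log2, relative to the 75th percentile) of 13 gene lists in each mouse of VC (gray), SFA (orange), and LFA (red), with black bars for group means. The LFA mice lie above the VC mice for macrophage, lectin receptor, CC chemokine, plasma cell, and mitosis genes, overlap them for B cell, T cell, collagen, and mesothelial genes, and lie below them for sarcomere, oxidative phosphorylation, and clock genes, while liver markers split both groups.

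Several of the largest increases belonged to genes outside these families. Calca, which encodes calcitonin and the neuropeptide CGRP, was at −3.46, −2.97, −3.81, and −3.68 in VC and at 1.41, 3.65, −0.08, and 2.83 in LFA, a 43.2-fold increase (change 5.43, SE 0.63, adjusted p = 0.000152), and both of its probes were called. Calcb, which encodes the second CGRP, was at −3.43 to −1.99 in VC and −3.31 to −0.46 in LFA (change 1.0, adjusted p = 0.387). Ramp1, the partner that turns the calcitonin-like receptor into the CGRP receptor, moved the other way. It was at 3.14, 3.56, 3.31, and 3.50 in VC and at 2.03, 1.31, 1.97, and 2.42 in LFA (change −1.45, SE 0.34, adjusted p = 0.0244), on 1 of its 3 probes, and the call was lost without VC 2, VC 4, or LFA 2 (adjusted p up to 0.084). Tlx2, a homeobox factor known from autonomic neurons, was not above background in VC and was at −1.96, −1.41, −1.81, and −0.47 in LFA, an increase of at least 20.2-fold (adjusted p = 0.00138). Fam162b was at −7.17, −6.10, −7.15, and −7.15 in VC, not above background, and at −1.86, −0.80, −2.43, and −0.75 in LFA, an increase of at least 22.3-fold (adjusted p = 4.4e-06). Car6, a secreted carbonic anhydrase, rose by 3.96 (SE 0.60, adjusted p = 0.00162) and was above background in 1 of 4 VC arrays. Ereg, the EGF receptor ligand epiregulin, was at −4.94, −6.44, −7.22, and −7.28 in VC and at −2.48, −2.16, −3.95, and −1.37 in LFA (change 3.98, SE 0.83, adjusted p = 0.0137). It was well above background in 1 of 4 VC arrays, so its VC level is mostly that of the background, and its adjusted p was 0.05 without LFA 4. Slfn4, a Schlafen gene of myeloid cells, was above background in 1 of 4 VC arrays and rose by 3.91 (SE 0.70, adjusted p = 0.00555). Tff1, a trefoil peptide of mucosa, was above background in 0 VC arrays and 3 LFA arrays and at least 7.8-fold higher (adjusted p = 0.00841), but the files place its probe on chromosome 5 whereas RefSeq places the gene on chromosome 17. With normexp background correction the changes of such dim genes were smaller, 1.89 for Fam162b (adjusted p = 0.00366), 1.78 for Tlx2 (adjusted p = 0.00746), 1.47 for Car6, 1.56 for Slfn4, and 1.09 for Ereg (adjusted p = 0.0452). The Tff1 change was 0.97 and its call was lost (adjusted p = 0.197). Among genes described above, Olr1 was at 1.48 (adjusted p = 0.00545), Ccl3 at 1.47, and Il6 at 1.28 (adjusted p = 0.0247) under that correction, and the calls of Cxcl3 (change 0.84, adjusted p = 0.135) and Cxcl2 (change 0.16, adjusted p = 0.67) were lost.

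Matrix genes changed in a few members. Of 23 noncollagen matrix and myofibroblast genes, 4 were called higher and 0 lower, with a median of 0.67. Cthrc1, a secreted protein of activated fibroblasts, was at −5.14, −4.72, −4.32, and −3.61 in VC and at −1.18, 0.74, −2.53, and −0.38 in LFA, a 12.2-fold increase (change 3.61, SE 0.70, adjusted p = 0.00899). Fn1, fibronectin, was at 4.89, 5.81, 5.10, and 4.88 in VC and at 7.05, 7.74, 7.68, and 7.54 in LFA (change 2.34, SE 0.53, adjusted p = 0.0202). Thbs1, the matricellular protein thrombospondin-1, rose by 2.54 (SE 0.55, adjusted p = 0.0167). The calls of Thbs1 and Fn1 were lost without LFA 2 or LFA 4 (adjusted p up to 0.0633 and 0.0647), that of Fn1 also without VC 1 or VC 4, and 1 of 23 was called without LFA 2 or LFA 4. Of 19 collagen chains 2 were called. Col3a1, the fibrillar chain of type III collagen, rose by 1.21 (SE 0.32, adjusted p = 0.0408) and Col5a2, of type V, by 1.57 (SE 0.37, adjusted p = 0.0242). Col1a1 was at 4.56 to 5.36 in VC and 5.15 to 7.04 in LFA and was not called (change 1.09, adjusted p = 0.0986). With 1 array left out, between 0 and 2 of the 19 collagens were called, 0 without VC 1, VC 4, LFA 2, or LFA 4. Acta2, the smooth muscle actin of myofibroblasts, had a negative change (−0.91, adjusted p = 0.0846). TGF-beta family genes gave 0 of 19 calls, with 3 at an unadjusted p under 0.05, and Tgfb1 had a change of −0.04. Leaving out 1 array also ended calls of Col3a1 (any array but LFA 1 and LFA 3, adjusted p up to 0.112) and Col5a2 (VC 1, VC 4, LFA 2, or LFA 4, adjusted p up to 0.0837).

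Within the metalloproteinases and their inhibitors, opposite calls stood in 1 small family. Timp1, an inhibitor induced in inflammation, was at 0.24, 1.32, −0.13, and 0.39 in VC and at 3.26, 5.63, 3.10, and 4.79 in LFA, a 13.4-fold increase (change 3.74, SE 0.55, adjusted p = 0.00114). Timp4, the inhibitor most abundant in heart and muscle, was at 3.08, 2.78, 2.32, and 2.01 in VC and at −0.29, −0.54, 1.21, and 0.49 in LFA, a 5.02-fold decrease (change −2.33, SE 0.46, adjusted p = 0.0096). Both calls held with any 1 of the 8 arrays left out. Mmp3, stromelysin-1, rose by 2.34 (SE 0.54, adjusted p = 0.0237), a call lost without any array but VC 2, LFA 1, and LFA 3 (adjusted p up to 0.0784). The mesothelial list gave 0 calls of 18, with 3 at an unadjusted p under 0.05 and a median of 0.30. Msln, mesothelin, was at 4.88, 5.96, 4.80, and 5.18 in VC and at 5.38, 4.60, 5.93, and 5.98 in LFA (change 0.27, adjusted p = 0.654). Wt1, a transcription factor of mesothelium, was at 2.54, 3.82, 2.58, and 2.82 in VC and at 3.65, 3.50, 4.10, and 4.26 in LFA (change 0.94, SE 0.40, adjusted p = 0.166).

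Cell division genes were called in the mitosis list. Of 22 mitosis genes, 10 were called higher and 22 had a positive change, with a median of 1.37. Bub1, a kinase of the spindle checkpoint, was at −6.18, −5.20, −4.32, and −5.12 in VC and at −3.54, −2.98, −2.01, and −3.01 in LFA (change 2.32, SE 0.48, adjusted p = 0.0128), and its call was lost with normexp background correction (change 0.57, adjusted p = 0.142). Ccnb1, the mitotic cyclin B1, rose by 2.01 (SE 0.43, adjusted p = 0.0149), Kif20a, a kinesin of cytokinesis, by 1.94 (SE 0.42, adjusted p = 0.017), and Ccna2, cyclin A2, by 1.71 (SE 0.34, adjusted p = 0.0105). Mki67, the antigen Ki-67, was at −0.58, −0.33, 1.68, and 0.27 in VC and at 1.30, 2.07, 2.47, and 1.59 in LFA and was not called (change 1.60, SE 0.57, adjusted p = 0.108), with VC 3 above LFA 1 and LFA 4. Among 21 replication genes 0 were called, with 18 of 21 positive, 11 at an unadjusted p under 0.05 against 24.8% of all genes, and a median of 0.55, and Pcna, the polymerase clamp, had a change of 0.18. The mitosis calls numbered 4 of 22 without VC 1 and 0 of 22 with LFA 3 and VC 2 left out together. LFA 3 and VC 2 were the mice with the lowest RNA integrity index of their groups. The median change of the list without those 2 arrays was 1.24. With the integrity index as a covariate, 15 of the 22 were called higher and the median was 1.41. With 1 array removed, the calls also lost were those of Ccnb1 (VC 1, adjusted p up to 0.0517) and Kif20a (LFA 4, adjusted p up to 0.0544).

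Cdkn2a, the locus of the cell cycle inhibitors p16 and p19, was higher in LFA. Its probe at chr4:88920405-88920464 (NCBI37) was at −1.92, −1.80, −0.84, and −2.75 in VC and at 0.12, 1.39, 1.43, and 0.74 in LFA (change 2.75, SE 0.45, adjusted p = 0.00276), and 2 of its 2 probes were called. The neighboring inhibitor Cdkn2b had a change of 0.91 (adjusted p = 0.144) and Cdkn1a, the p53 target p21, 0.93 (adjusted p = 0.0925). In the same list of 22 checkpoint and p53 genes, Gadd45g, a stress-induced growth inhibitor, fell by 1.21 on the log2 scale (SE 0.27, adjusted p = 0.0202), lost without VC 2, VC 4, or LFA 1 (adjusted p up to 0.0608) and at −1.0 with quantile normalization. Of 15 mesothelioma suppressor and Hippo pathway genes 0 were called, with 2 at an unadjusted p under 0.05. Nf2, the suppressor merlin, was at 0.36, 0.45, 0.74, and 0.95 in VC and at −0.25, 0.19, −0.28, and −0.40 in LFA (change −0.81, adjusted p = 0.146), and Bap1, a nuclear deubiquitinase, had a change of −0.71 (adjusted p = 0.0503). Of 28 kinase pathway genes, 7 were called higher and 0 lower, with a median of 0.28, and 4 were called without LFA 2 or LFA 4. Besides Ereg, these were mostly kinases of blood cells, including Fgr (change 1.86, SE 0.39, adjusted p = 0.0135), and PI3-kinase subunits restricted to leukocytes. Pik3r5, the regulatory subunit of PI3-kinase gamma, rose by 1.80 (SE 0.29, adjusted p = 0.00238). Pik3cg, its catalytic subunit, was at −2.02, −4.51, −2.51, and −2.88 in VC and at −1.65, −0.41, −2.03, and −0.71 in LFA (change 1.78, SE 0.43, adjusted p = 0.029), with LFA 3 level with VC 1, and the call was lost without VC 2, VC 4, LFA 2, or LFA 4 (adjusted p up to 0.0936) and with normexp background correction (change 0.98). Among 8 DNA methylation genes 0 were called, with 3 at an unadjusted p under 0.05, and Dnmt3a had a change of −0.24 (adjusted p = 0.662). Single arrays also decided the call of Fgr (lost without LFA 2, adjusted p up to 0.0575).

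Muscle genes were lower in LFA, by about 2-fold at the median of the list. Sarcomere genes had a median change of −1.02, with 5 of 28 called lower and 20 of 28 with the LFA mice below the VC mice, against 1.70% and 10.2% of all genes. Actn2, the actinin of the Z disc, was at 6.19, 6.49, 6.15, and 6.33 in VC and at 4.74, 4.94, 4.35, and 5.17 in LFA (change −1.49, SE 0.35, adjusted p = 0.0253). Tpm2, beta-tropomyosin, fell by 1.42 on the log2 scale (SE 0.39, adjusted p = 0.0457) and Myoz1, a Z-disc protein of fast fibers, by 1.31 (SE 0.31, adjusted p = 0.0243). Actc1, the cardiac actin also found in immature muscle, was at 5.14, 7.25, 5.67, and 6.80 in VC and at 4.81, 3.96, 3.51, and 4.78 in LFA (change −1.95, SE 0.54, adjusted p = 0.0483). Of 23 genes of calcium handling, creatine, and glycogen, 7 were called lower, with a median of −1.17 and 0 positive. Casq2, the calcium store of the sarcoplasmic reticulum, was at 4.82, 4.41, 3.97, and 4.60 in VC and at 3.0, 2.94, 2.98, and 3.28 in LFA (change −1.40, SE 0.31, adjusted p = 0.0173). Slc2a4, the insulin-dependent glucose transporter GLUT4, fell by 1.32 (SE 0.31, adjusted p = 0.0228) and Ryr1, the calcium release channel, by 1.28 (SE 0.34, adjusted p = 0.0405). Mylk4, a kinase of the myosin light chain kinase family, and Sbk2, a kinase known from heart muscle, were among the 16 largest decreases, at −2.10 (adjusted p = 0.0425) and −2.11 (adjusted p = 0.0422). Leaving out 1 array also ended calls of Actn2 (any array but VC 3 and LFA 4, adjusted p up to 0.0618), Tpm2 (any array, adjusted p up to 0.106), Myoz1 (VC 2, VC 4, LFA 1, or LFA 2, adjusted p up to 0.0832), Actc1 (any array but VC 1, adjusted p up to 0.116), Casq2 (VC 1 or LFA 2, adjusted p up to 0.0579), Slc2a4 (VC 2, LFA 1, or LFA 2, adjusted p up to 0.0738), Ryr1 (any array but VC 1, adjusted p up to 0.0977), Mylk4 (any array but VC 2, adjusted p up to 0.0978), and Sbk2 (any array but VC 2, adjusted p up to 0.107).

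The genes for mitochondrial energy supply followed the contractile genes. Of 31 nuclear genes of oxidative phosphorylation and the citrate cycle, 5 were called lower, 0 had a positive change, and the median was −0.95. Uqcrc1, a core protein of complex III, was at 6.29, 7.00, 6.16, and 6.47 in VC and at 5.26, 4.71, 5.61, and 5.78 in LFA (change −1.14, SE 0.27, adjusted p = 0.0255). Cox8b, a cytochrome oxidase subunit of heart and muscle, fell by 1.09 on the log2 scale (SE 0.30, adjusted p = 0.0446). Of 25 genes of fatty acid uptake and oxidation, 6 were called lower, with a median of −0.84. Hadha, the trifunctional enzyme of beta-oxidation, was at 3.79, 3.71, 4.01, and 4.30 in VC and at 2.50, 2.61, 2.73, and 2.79 in LFA (change −1.30, SE 0.25, adjusted p = 0.00948), and its call held with any 1 of the 8 arrays left out. Ppargc1a, the coactivator PGC-1 alpha that drives mitochondrial genes, fell by 1.72 (SE 0.43, adjusted p = 0.0336), Cpt1b, the muscle carnitine transferase, by 1.37 (SE 0.36, adjusted p = 0.0396), and Pnpla2, the triglyceride lipase ATGL, by 1.17 (SE 0.24, adjusted p = 0.0115). Dgat2, which completes triglyceride synthesis, and Cidec, which coats lipid droplets, fell by 1.17 (SE 0.27, adjusted p = 0.0226) and 1.03 (SE 0.29, adjusted p = 0.0487), as 2 of 17 adipocyte genes. Trim63, the ubiquitin ligase MuRF1 of muscle wasting, fell by 1.33 (SE 0.35, adjusted p = 0.0404), so the atrophy list gave 1 call downward and 0 upward of 13. Myh8 and 15 other regeneration and denervation genes gave 0 calls, with 7 at an unadjusted p under 0.05. With 1 array removed, the calls also lost were those of Uqcrc1 (VC 2, VC 4, LFA 1, or LFA 2, adjusted p up to 0.087), Cox8b (any array, adjusted p up to 0.113), Ppargc1a (any array but VC 3, VC 4, and LFA 3, adjusted p up to 0.0963), Cpt1b (any array but VC 4 and LFA 3, adjusted p up to 0.105), Dgat2 (VC 2, LFA 2, or LFA 4, adjusted p up to 0.0809), Cidec (any array but LFA 3, adjusted p up to 0.125), and Trim63 (any array, adjusted p up to 0.109).

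The number of these decreases depended on the scaling, on covariates, and on single arrays. With quantile normalization the medians were −0.65 for the sarcomere, −0.95 for calcium handling, −0.54 for oxidative phosphorylation, and −0.59 for fatty acid oxidation, with 0, 1, 0, and 3 genes called lower. With normexp background correction 8, 9, 6, and 6 genes of the 4 lists were called lower. With the RNA integrity index as a covariate the counts were 12, 10, 23, and 14 and the medians −1.03, −0.99, −1.09, and −1.02. With the liver marker score as a covariate the counts were 2, 4, 2, and 5, and with the slide as a block 1, 2, 2, and 3. Acta1 moved from −1.01 (adjusted p = 0.0318) to −0.37 (adjusted p = 0.505) under quantile normalization. VC 2 was the brightest array for Cox8b at 9.59, Cpt1b at 6.38, and Dgat2 at 8.21, and without it 1 sarcomere, 1 calcium handling, 0 oxidative phosphorylation, and 4 fatty acid oxidation genes were called. Without both LFA 3 and VC 2 the counts were 0, 0, 0, and 6. With 1 array left out they ran from 0 to 3, 0 to 8, 0 to 7, and 2 to 10, and the fewest came without LFA 2 in each list. The medians of the 4 lists were negative in each of these settings for which they are given, and also without VC 2, from −1.05 to −0.61, and without both arrays, from −1.08 to −0.80. The part of the macrophage scores given above in these decreases was not tested.

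**Figure D4:**
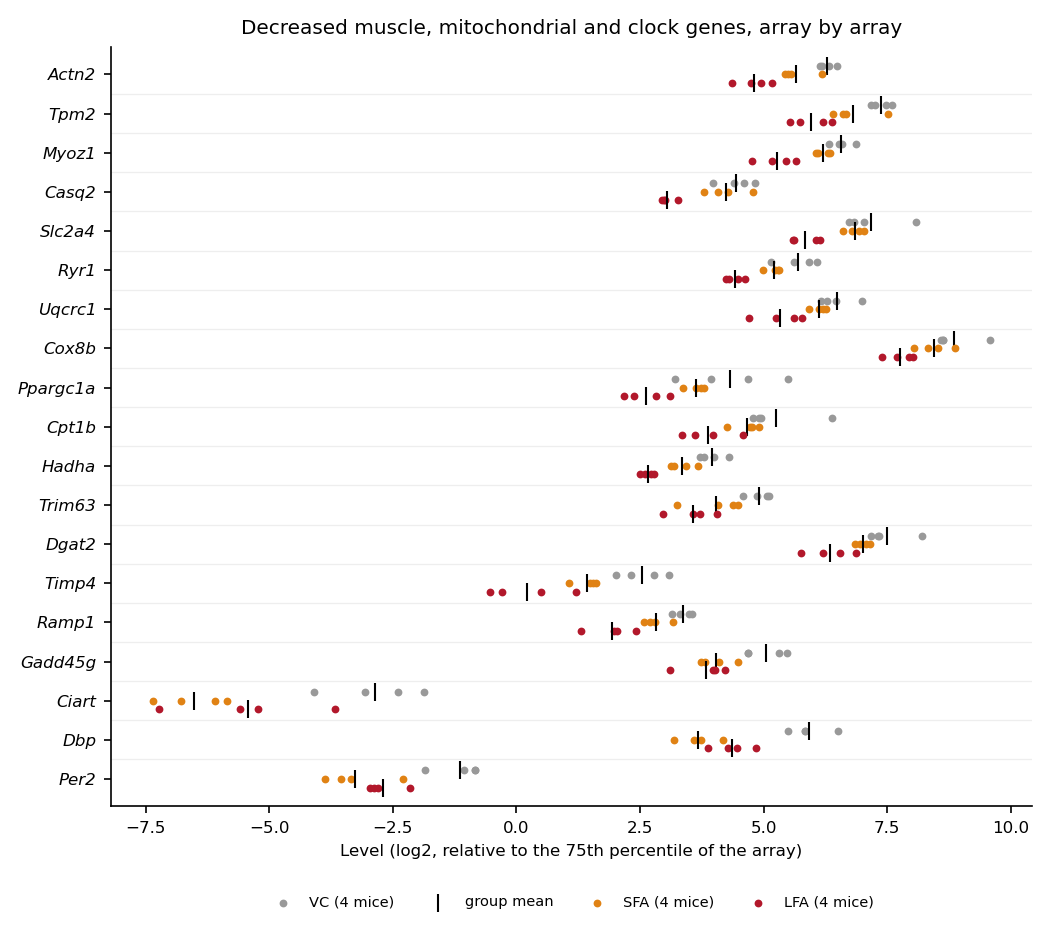
Level (log2, relative to the 75th percentile of the array) of 19 decreased genes of muscle, mitochondria, lipid metabolism, and the clock, with points for single mice of VC (gray), SFA (orange), and LFA (red) and black bars for group means. SFA lies between VC and LFA for most muscle and mitochondrial genes and at or below LFA for Ciart, Dbp, and Per2.

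Output genes of the circadian clock were lower in LFA. Of 19 clock and PAR bZIP genes, 5 were called lower and 0 higher, with a median of −0.95. Dbp, a transcription factor under direct clock control, was at 5.50, 6.50, 5.85, and 5.84 in VC and at 3.88, 4.84, 4.28, and 4.47 in LFA (change −1.55, SE 0.39, adjusted p = 0.0325). Per2, a repressor of the clock, was at −1.07, −1.85, −0.83, and −0.84 in VC and at −2.88, −2.96, −2.81, and −2.15 in LFA (change −1.55, SE 0.39, adjusted p = 0.0325). Hlf, a relative of Dbp, fell by 1.43 on the log2 scale (SE 0.33, adjusted p = 0.0212). Ciart, another clock repressor, was at −3.07, −4.10, −1.87, and −2.41 in VC and at −5.60, −3.68, −7.24, and −5.22 in LFA (change −2.57, SE 0.60, adjusted p = 0.0246), with LFA 2 above VC 2. Arntl, the activator that runs opposite to these genes over the day, had a change of 0.75 (adjusted p = 0.128). SFA was as low as LFA or lower in 3 of these genes, at 3.67 ± 0.41 (SD, n = 4) for Dbp against 4.37 ± 0.40 in LFA and 5.92 ± 0.42 in VC. The differences between LFA and SFA were 0.69 for Dbp, 0.57 for Per2, and 1.09 for Ciart, and none of these 3 was called. The call of Dbp was lost whichever array was left out, that of Per2 was lost without any array but VC 2 and LFA 4, that of Ciart was lost without any array but VC 2 and LFA 2, and 0 clock genes were called without VC 3 or VC 4. The hour at which each mouse was killed is not given in the sources used here. The Ciart promoter is shown because it held the clock element CACGTG, the E-box, 3 times, between 44 and 116 bases before the start. The line gives the 120 bases before the start at chr3:95882229-95882348 (GRCm38.p6, minus strand), with E-boxes in capitals.
Ciart: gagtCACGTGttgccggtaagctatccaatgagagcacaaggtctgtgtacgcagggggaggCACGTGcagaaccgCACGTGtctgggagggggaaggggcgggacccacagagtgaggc
The 250 bases before each start were searched on both strands. CACGTG was in at least 1 promoter of 9.87% of the genes called lower, 5.33% of those called higher, and 8.80% of all tested genes. Single arrays also decided the call of Hlf (lost without VC 3, VC 4, or LFA 4, adjusted p up to 0.0697).

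Some of the largest decreases came from probes of repeated sequence. Among the 16 genes with the largest decreases, Sox5, Vash1, and Cplx2 had nearly the same profile over the 8 mice. Sox5 was at 5.50, 6.67, 4.96, and 5.87 in VC and at 3.66, 2.48, 4.50, and 3.51 in LFA (change −2.21, SE 0.43, adjusted p = 0.0095). Vash1 was at 5.45, 6.62, 5.05, and 5.67 in VC and at 3.91, 2.80, 4.81, and 3.58 in LFA (change −1.92, SE 0.41, adjusted p = 0.0163). Cplx2 was at 5.44, 6.50, 5.00, and 5.73 in VC and at 3.87, 2.70, 4.78, and 3.74 in LFA (change −1.89, SE 0.41, adjusted p = 0.0171). Their probes, of 60 bases each, hold runs of the triplet GGA, as the first 30 bases show, with the repeated triplets in capitals.
Sox5: GGAGGAGGAGGAagaGGAGGAGGAGGAaga
Vash1: gaGGAGGAGGAGGAGGAGGAGGAGGAGGAg
Cplx2: aGGAGGAGGAGGAGGAGGAGGAGGAGGAgg
Of 36931 probes tested, 35 held GGAGGAGGAGGA, and 22 of the 35 (62.9%) were called lower, with a median change of −2.04 and 32 of 35 negative. The search for this run was made after these values were seen, and 1 probe held the opposite strand, TCCTCCTCCTCC, and was called higher at 2.15. The Vash1 probe without the run had a change of −1.53 and was not called (adjusted p = 0.089). For Cplx2, 1 probe without the run had a change of −0.17 (adjusted p = 0.711), while another without it was at −3.12 (adjusted p = 0.00496). The files place the Vash1 probe on chromosome 6 and RefSeq places the gene on chromosome 12. Which transcripts these probes read was not tested, so these values describe the probes and not the 3 genes. Leaving out 1 array also ended calls of Vash1 (LFA 2 or LFA 4, adjusted p up to 0.0646) and Cplx2 (LFA 2, adjusted p up to 0.0655).

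Of the other large decreases, Pcsk1n, an inhibitor of prohormone processing in neuroendocrine cells, was the brightest, at 5.77, 6.55, 5.21, and 4.50 in VC and at 2.91, 3.44, 3.05, and 3.62 in LFA (change −2.25, SE 0.61, adjusted p = 0.0431), lost without any array but VC 4 (adjusted p up to 0.106). Wnt2b, a secreted Wnt ligand, fell by 2.20 on the log2 scale (SE 0.51, adjusted p = 0.0233) and Insyn2b by 2.05 (SE 0.49, adjusted p = 0.0276). Etd, Prl2a1, and Tas2r140, a bitter taste receptor gene, were above background in 3, 4, and 3 VC arrays and in 0 LFA arrays, and were at least 3.33-fold, 3.59-fold, and 2.93-fold lower (adjusted p = 0.038, 0.0351, and 0.0192). Zfp811 and Vmn2r111 were near background in LFA, with changes of −2.03 and −1.96. With normexp background correction Etd, Prl2a1, and Tas2r140 had changes of −0.85, −0.85, and −0.70, Zfp811 and Vmn2r111 had −0.80 and −0.74, and none of these 5 was called. Vessel genes gave 0 calls of 18, with 3 at an unadjusted p under 0.05 and a median of −0.48. Lyve1, shared by lymphatic endothelium and resident macrophages, rose by 1.17 (SE 0.33, adjusted p = 0.0485) and was the sole call of 7 lymphatic genes, lost without any array but VC 2. Lung epithelium markers (6 genes) and erythroid markers (9 genes) gave 0 calls, with 0 and 2 at an unadjusted p under 0.05, and Scgb1a1, the club cell marker of airways, was at −4.95 to −3.82 in VC and −5.75 to −4.24 in LFA. With 1 array removed, the calls also lost were those of Wnt2b (VC 1, VC 4, LFA 2, or LFA 4, adjusted p up to 0.0729), Insyn2b (VC 1, VC 2, LFA 1, or LFA 2, adjusted p up to 0.0896), Etd (any array but VC 3 and LFA 4, adjusted p up to 0.0987), Prl2a1 (any array but VC 4 and LFA 4, adjusted p up to 0.101), Tas2r140 (VC 1, VC 2, LFA 2, or LFA 4, adjusted p up to 0.0648), Zfp811 (any array but VC 2 and LFA 2, adjusted p up to 0.101), and Vmn2r111 (any array, adjusted p up to 0.124).

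**Figure D5:**
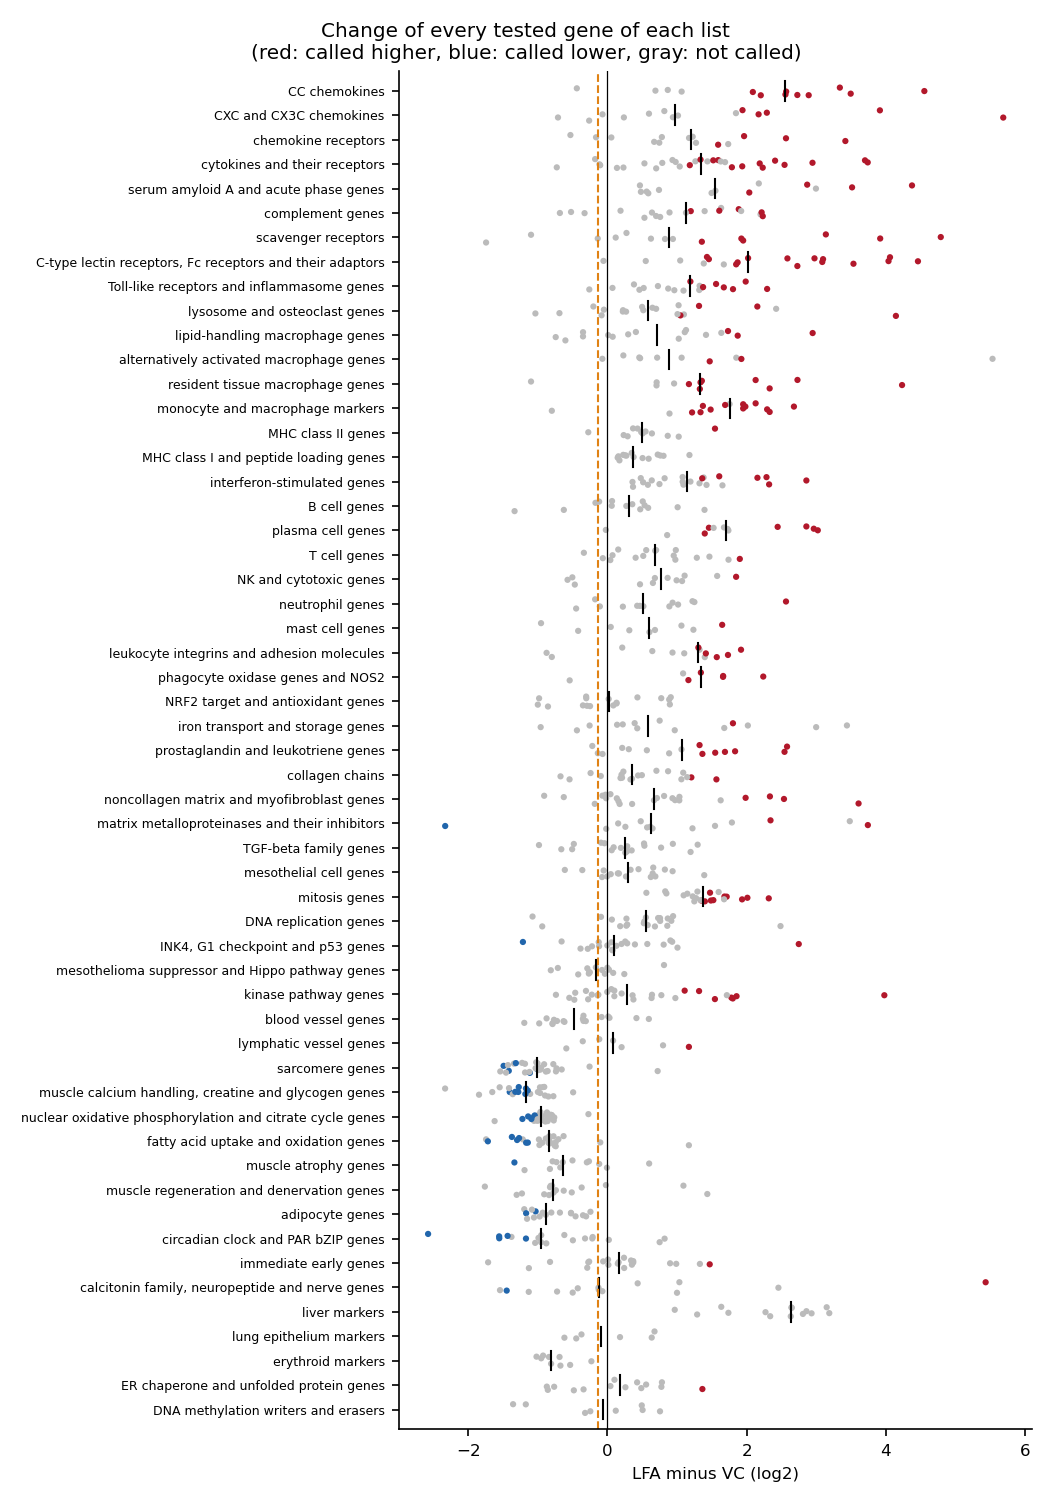
Change in LFA (log2, LFA minus VC) of each tested gene of 55 lists, red where called higher, blue where called lower, and gray where not called, with black bars for list medians and a dashed line for the median of all genes. Red points crowd the chemokine, receptor, and macrophage lists, blue points lie in the muscle, mitochondrial, and clock lists, and liver markers are positive without a call.

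Set against short fibers of the same material and dose, LFA gave 380 probes called higher (1.03%) and 49 called lower (0.133%), and by gene 185 (1.15%) and 11 (0.0685%). This comparison shares its LFA arrays with that against VC, so both sets of values are given side by side and are not independent. Liver RNA also differed among the SFA arrays, with the mean of the liver markers at 1.59, 6.80, 4.58, and −1.79. The integrity index ran from −1.40 to −0.53 in SFA, lowest in SFA 1. The part of either in the differences from SFA was not tested. Fam162b was 5.37 higher in LFA than in SFA and 5.43 higher than in VC. Calca differed by 4.86 from SFA and 5.43 from VC, Cxcl5 by 4.68 and 5.69, Ccl8 by 4.23 and 4.55, and Marco by 3.72 and 3.92, and these 4 were called in both. Cdkn2a was 2.45 above SFA and Jchain 2.75, and both were called. Other genes with a large change from VC were not called from SFA, among them Vsig4 (3.11), Atp6v0d2 (3.29), Il1b (2.94), Ereg (2.98), and Cthrc1 (2.42). For the muscle and mitochondrial lists the median difference from SFA was −0.70 for the sarcomere, −0.74 for calcium handling, −0.66 for oxidative phosphorylation, and −0.69 for fatty acid oxidation. In each of these lists, 0 genes were called from SFA. For mitosis genes the median difference from SFA was 0.89 with 0 of 22 called, and for plasma cell genes it was 1.34 with 4 of 12 called.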

How the data were processed

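RNA from the diaphragm of 20 mice, 1 array each in 5 groups of 4, had been hybridized to 1-color Agilent arrays. The deposited scanner files hold spot intensity values, which the authors extracted with Agilent Feature Extraction 10.7.3.1 per the submitters' processing notes. The log2 values in the authors' normalized table are group means only, with no value for single mice, and they served as an alternative without a test. Here, log2 of the processed signal minus the 75th percentile of its array was averaged by probe, after control spots (leaving 59305 spots and 55681 probes) and 92 to 201 outlier spots per array of VC and LFA were left out. Probes well above background on at least 4 of 20 arrays (36931) were fitted with limma 3.58.1 in R 4.3.3, with 1 mean for each group and all 20 arrays sharing the estimate of the spread. A call needed a change of at least 2-fold and a Benjamini-Hochberg adjusted p under 0.05. limma's p-values rest on 4 mice in each group, and this number limits the precision of every change. Data tables were handled with the data.table package, version 1.17.8, and Python 3.11.15, numpy 2.4.6, and pandas 2.3.3, and plots were drawn with matplotlib 3.10.9. The fit was tested on simulated data.

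Genes take their brightest tested probe, and 27229 probes were named through RefSeq accessions. The genes named were the 24 increases and 16 decreases with the largest change among called genes with no overlap of groups, leaving out clone names, and 4 called genes under this rule are not reported here. They also include the 3 largest called members of each list in each direction, the genes Stat3, Il6, Pik3cg, Msln, Wt1, Cd68, Ptprc, Cd3e, Ly6g, Cdkn2a, Nf2, and Mki67, defining cell markers, and the brightest member of a list without a call. Members and lists were chosen with earlier results of these data known. Genes given beyond this rule were picked after their values were seen: Acta2, Alox5ap, Arg1, Arntl, Bap1, C1qc, C3, Calcb, Ccl11, Ccl12, Ccl2, Ccl6, Ccl7, Ccna2, Ccr2, Cdkn1a, Cdkn2b, Clec7a, Col1a1, Csf2, Csf2rb, Cxcl1, Cxcl10, Cxcl13, Fcgr2b, Fcgr4, Hlf, Hmox1, Hp, Il10, Il1r1, Il1r2, Mzb1, Nlrp3, Oas1a, Pnpla2, Socs3, Tgfb1, Tnf, Trem2, and Tyrobp. Where a group was not well above background on any array, the fold is a lower bound for the processed signal only. Its reference is the higher of the dim probe's own signal and the lowest signal well above background on that array. Changes given for such genes with normexp background correction were smaller than these bounds. Promoter sequences (32851, from 250 bases before to 50 after the start) came from RefSeq GRCm38.p6, and the motifs and the repeat search were chosen after values were seen. Probe positions were taken from the files' own annotation (NCBI37). The integrity index used 1127 transcripts with probes at least 1000 bases apart. Replicate numbers do not pair the mice: deviations from group means correlated at −0.51 to 0.58 between samples of the same number and −0.38 to 0.54 between others. Alternatives were quantile normalization, normexp background correction with an offset of 50, other filters, probes averaged by gene, the authors' table, the slide or the replicate number as a block, LFA and VC arrays alone, the methods' unequal-variance test, and leaving out each array. Chosen after seeing the data were fits without LFA 3 and VC 2, without VC 1, LFA 1, and LFA 3, and with the integrity index or the liver score as a covariate.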

Additional observations from a re-analysis of the deposited data

Results flagged for a closer look

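In 21 of 424 groups of 4 mice (4.95%), 1 mouse lay far from the other 3 by Dixon's ratio, which chance alone exceeds in about 1 in 20 groups. In LFA, the mouse that stood apart was LFA 4 for Cxcl5 (2.73, the others at 0.74 to 0.99), Il1b (2.07, others −0.39 to −0.07), and Etd (−5.57, others −7.39 to −7.08). It was LFA 1 for F7 (0.99, others −0.00 to 0.12) and LFA 3 for Car6 (−0.68, others −2.18 to −2.0). In VC, each gene flagged was set apart by VC 2, which was higher for Fam162b (−6.10, others −7.17 to −7.15), Pycard (2.83, others 1.57 to 1.74), Lgals3 (5.07, others 3.39 to 3.65), Sod2 (8.48, others 7.10 to 7.26), Cox8b (9.59, others 8.59 to 8.64), Cpt1b (6.38, others 4.78 to 4.95), Dgat2 (8.21, others 7.17 to 7.34), and Lamp3 (4.50, others 2.99 to 3.02). The same mouse was lower for Mylk4 (−3.15, others −1.72 to −1.58) and Selp (−2.84, others −2.13 to −2.03). Among list means, VC 2 stood apart for complement genes (3.13, others 2.77 to 2.83), vessel genes (1.25, others 1.85 to 1.89), and oxidative phosphorylation (8.49, others 7.41 to 7.54). The remaining list means were those of plasma cell genes in LFA 1 (2.22, others 2.62 to 2.66), muscle calcium handling in LFA 4 (4.96, others 4.55 to 4.60), and chaperones of the endoplasmic reticulum in VC 4 (2.83, others 3.19 to 3.25).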

How the results depend on the processing

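Against 821 probes higher and 634 lower from VC, 151 and 34 list genes, and 118 called named genes, the lower calls depended most on the processing, and the cause was not tested. Lower probes and list genes numbered 312 and 9 with quantile normalization, 307 and 17 without a filter, 292 and 15 with the slide as a block, and 247 and 16 by the methods' unequal-variance test, which kept 74 named genes. With LFA and VC arrays alone, which leaves fewer arrays behind the spread, 402 probes were higher, 186 lower, 80 and 7 list genes were called, and 61 named genes were kept. In the alternatives chosen after seeing the data, lower probes and list genes were 152 and 12 without LFA 3 and VC 2, 1466 and 78 with the integrity index as a covariate, and 364 and 22 with the liver score. Without VC 1, LFA 1, and LFA 3 there were 445 higher and 57 lower probes, 6 lower list genes, and 67 named genes kept. From SFA (380 higher, 49 lower), the index gave 588 and 128, the fit without LFA 3 and VC 2 gave 552 and 119, and the liver score gave 77 lower. With the replicate number as a block, although the numbers do not pair the mice, 679 probes were higher, 538 lower, and 22 list genes lower, against 287 and 42 from SFA. Leaving out 1 of the 20 arrays gave 344 (LFA 2) to 1085 (NTS 4) higher and 122 to 1556 lower probes, 63 to 118 named genes, 89 to 177 higher and 6 to 45 lower list genes, and 141 to 460 higher and 12 to 94 lower probes from SFA. Of 121 called genes, including defining markers, 0 changed sign in the settings run for each gene. The authors' table gave changes without a test.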
